A study of Macaca mulatta with 38 samples.

Results

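Barcodes found in both T and B cells but in no granulocyte or monocyte library were followed in 1 rhesus macaque, ZL34, a male of 4 years. A lentiviral barcode is a DNA tag that the vector writes into a cell's genome, and every descendant of that cell carries it. The animal's CD34+ cells had been mobilised with G-CSF and AMD1300, transduced at an MOI (vector particles per cell) of 25 and returned after TBI, and cidofovir was given weekly at 5 mg/kg. All 38 libraries are DNA of peripheral blood cells of this 1 transplanted animal, so every value below comes from 1 transduced graft and no untransduced control was analysed here. The labels name 9 T libraries, 8 B, 7 Gr (granulocytes), 7 Mono (monocytes), 5 nRBC (nucleated red cells), 1 EOS and 1 CD34p, taken at days 32 to 553. The labels give no sort gates or purities. The table holds no gene expression, so the cell types could not be checked against markers.

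Members were chosen by their counts in the T, B, Gr and Mono libraries, under 4 conditions. A member had counts in at least 1 T and at least 1 B library of day 119 or later, it was listed at 0 in every Gr and Mono library, it was listed at 0 in T of day 32, and it stayed below 0.2% of reads in every T library. Of 44423 barcodes in the table, 11641 had counts in both T and B from day 119. Of these, 3911 had none in Gr or Mono, 3873 were also at 0 in T of day 32, and 3869 met every condition. The members were thus 8.71% of all barcodes and 33.2% of those listed in both T and B. Their presence in T and B and their absence from the myeloid libraries were fixed by this choice and are not findings. A set of 7546 barcodes that met the same T and B conditions but had counts in Gr or Mono is used below for comparison and is called the myeloid-sharing set.

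T and B lymphocytes both descend from stem and progenitor cells of the marrow, which also give rise to granulocytes and monocytes. T cells mature in the thymus and B cells mainly in the marrow, and both leave long-lived cells that can persist after the progenitor that made them has ceased output. Granulocytes and most monocytes live for a short time in blood, so their barcodes reflect recent output of the marrow.

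The sequences of 8 members are given, since they carry the patterns described below. The first 3 were listed in many T and B libraries, the next 3 were held mainly by T and the last 2 mainly by B. The 6 lower-case bases at the start are shared by nearly all barcodes, the capitals mark the variable part, and the lower-case end is the start of the sequencing adapter. Barcodes are numbered by their mean percent of reads over all libraries.
bc857: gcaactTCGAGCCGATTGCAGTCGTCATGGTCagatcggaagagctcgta
bc2369: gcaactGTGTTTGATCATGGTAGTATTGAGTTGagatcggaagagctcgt
bc2067: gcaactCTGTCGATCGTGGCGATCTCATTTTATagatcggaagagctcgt
bc386: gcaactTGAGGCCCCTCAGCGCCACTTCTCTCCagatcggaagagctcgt
bc863: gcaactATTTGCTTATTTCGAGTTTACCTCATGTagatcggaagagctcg
bc2134: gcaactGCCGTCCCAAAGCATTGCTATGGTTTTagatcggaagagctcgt
bc112: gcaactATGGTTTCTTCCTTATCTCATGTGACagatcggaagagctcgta
bc3230: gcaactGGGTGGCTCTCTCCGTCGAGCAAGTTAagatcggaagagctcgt
No member lay within a few bases of a more abundant barcode. The nearest more abundant barcode differed at 7 or more of the 50 bases, with a median of 11. No member matched one with at most 1 mismatch after a shift of 1 or 2 bases. In the myeloid-sharing set the smallest distance was 6 and the median 11. The starts were GCAACT in 3819 members and GGCAAC in 50. The adapter began after 32 to 34 bases in 93.9% of members and in 93.3% of the myeloid-sharing set. Bases 7 to 33 held 53.6% ± 9.98 G and C in members and 53.3% ± 9.65 in the myeloid-sharing set (SD over barcodes). In members these positions were 16.4% A, 22.9% C, 30.6% G and 30.1% T.

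From day 119 the T libraries held 766039 to 3464834 reads and the B libraries 789584 to 3365960. No count from 1 to 100 occurs in the table, so a listed 0 was taken as at most 100 reads, a limit inferred from the values. The T and B libraries of day 494 were the shallowest. The T library of day 187 listed 2158 barcodes although it had 3210053 reads, against 13465 in B of that day. T of day 119 listed 8450 and B of day 119 listed 8349. In T, members listed at day 187 had a median of 0.0170% of reads each, against 0.00386% to 0.00646% at the other days except day 494, where it was 0.0168%.

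Most members were rare and were seen few times. The highest share of a member in any T library had a median of 0.00515% and the highest share in a B library from day 119 a median of 0.00672%, while a count just over 100 reads in the shallowest library is 0.0132%. In 66.8% of members no T or B library from day 119 reached 0.01%, against 32.4% of the myeloid-sharing set. Of the 3869 members, 1549 were listed in exactly 1 T and 1 B library, which is 40.0%. In the myeloid-sharing set this share was 13.7%. At least 2 T and 2 B libraries listed 765 members (19.8%), and 66 (1.71%) were listed in 10 or more of the 15. No member was listed in all 15, against 119 barcodes of the myeloid-sharing set. The members had more B than T libraries in 1382 cases, more T than B in 655 and equal numbers in 1832.

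The share of barcodes that met the conditions was lower among the more abundant ones. Among all barcodes in T and B, 61.7% of those with a highest share under 0.005% were members, 47.4% at 0.005 to 0.01%, 27.7% at 0.01 to 0.02%, 10.3% at 0.02 to 0.05%, 4.90% at 0.05 to 0.1% and 1.17% above that. By number of T and B libraries, the share was 59.3% among barcodes listed in 2 libraries, 22.0% in 6, 7.95% in 10 and 1.85% in 13, and no barcode in 14 or 15 libraries was a member. The part of the limit of 100 reads in this was not tested. At days 119, 187 and 266, 889 members (23.0%) reached more than 3 times the limit of both myeloid libraries of the day in T or in B. Of all barcodes in T and B that did so, 18.6% were members, against 43.4% of those that did not.

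The days differ in what a myeloid 0 can show. At days 32 to 266 the Gr and Mono libraries listed 808 to 10210 barcodes, and a 0 there meant at most 0.00301 to 0.00695% of reads. At days 365, 494 and 553 the 6 most abundant barcodes of the series (bc1 to bc6) held 91.7 to 99.9% of Gr and Mono reads, and those libraries listed 12 to 197 barcodes. Counted over the reads outside bc1 to bc6, a 0 in them meant at most 0.0332 to 5.81%, depending on the library. No Gr or Mono library of days 393 or 536 was analysed here. T listings of 790 members fell at those days alone, the B listing of 402 at day 393 alone, and 100 members met both. 368 members were listed in neither T nor B at days 119 to 266. For these the absence from same-day myeloid cells rests on late libraries or none, and its part in the result was not tested.

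Members held up to 10.9% of T reads and 10.5% of B reads. In T their summed share at days 119, 187, 266, 365, 393, 494, 536 and 553 was 10.9, 6.39, 6.18, 4.37, 6.55, 1.84, 4.91 and 3.73%. The B libraries gave 7.21% at day 32, and 10.4, 10.5, 8.69, 6.58, 8.14, 4.41 and 4.90% on the 7 days shared with T. The sum was lower in T than in B on 6 of the 7 shared days. It averaged 5.71% ± 2.85 in T and 7.66% ± 2.46 in B (SD, n = 7 days), a difference of −1.96 points (SD 1.40). No test was made, since the choice of members used these libraries. At day 553 bc1 to bc6 took a large part of both libraries, and over the other reads members held 7.30% in T and 8.36% in B. By number of barcodes, members were 7.75 to 21.8% of those listed in T from day 119 and 6.22 to 13.2% of those in B, and their share of the listed barcodes was higher in T than in B on every shared day.

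T of day 119 listed 1841 members, B of that day 1038 and B of day 187 listed 1783. T listed 354 at day 187, and 497, 1082, 79, 817 and 537 from day 365 on. B listed 1119 at day 32, and 1088, 889, 1379, 205 and 892 from day 266 on. Day 494 was lowest in both lineages, and day 119 was the only shared day on which T listed more members than B.

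Which lineage showed a member first depended on the day 119 libraries and on the reading of day 32. Over the 7 days from day 119 that T and B share, 3568 members had a listing in each. T came first in 1615 of them (45.3%), both appeared on the same day in 758 (21.2%) and B came first in 1195 (33.5%). The other 301 were listed in T at day 536 alone. Where T came first the median wait until B was 147 days, and where B came first the median wait until T was 178 days. The most frequent pair was T at day 119 and B at day 187, with 631 members, followed by both at day 119 with 510 and T at day 119 with B at day 266 with 247. T of day 119 listed more barcodes than any other T library, and the part of this in the order was not tested.

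Without day 119, T came first in 19.7% and B in 59.4% of 2249 members. With the same share limit of 0.0132% in every library, 703 barcodes met the conditions, of which 126 were among the 3869 members. T came first in 33.5% and B in 45.3% of the 687 of these seen in each lineage on the shared days. That limit also takes smaller Gr and Mono shares as 0, and most of the 703 were not members under the main conditions. Their order is thus mainly that of other barcodes. Among members with at least 2 T and 2 B libraries, T came first in 253 and B in 273. The order of the lineages was thus not the same under these settings. Counting B of day 32 as well, which the conditions leave free while T of day 32 is held at 0, B came first in 2171 of all 3869 members (56.1%) and T in 1161 (30.0%). Since T of day 32 had to be 0, no member could come first in T on that day.

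The myeloid-sharing set differed in order at the same days, with T first in 27.4% and B first in 39.5% of 7145. The gap was smaller with 1 T and 1 B library, but not among the more abundant barcodes. With 1 T and 1 B library, T came first in 55.2% of members and 52.8% of the myeloid-sharing set, and B in 28.4% and 29.7%. With 6 or more libraries, T came first in 28.3% of members and 16.1% of the myeloid-sharing set, and B in 36.7% and 40.9%. At a highest share under 0.01%, T came first in 50.7% and 43.1%, and B in 32.8% and 37.8%. At 0.02% or more, T came first in 33.5% and 14.2%, and B in 30.2% and 39.8%. Barcodes are not replicates, so these shares were not tested.

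B of day 32 listed 1119 members, 28.9%, against 34.3% of the myeloid-sharing set. This library is not used by the conditions. The members it listed were much like the rest afterwards. They were listed in a mean of 3.47 T and B libraries from day 119, against 3.43 for the 2750 others, and their highest shares had medians of 0.00803% and 0.00782%. Of those seen in B at day 32, 560 of 1119 were listed in T at day 119 and 29.9% in B. Of the others, 46.6% were listed in T at day 119 and 25.6% in B. On the shared days T came first in 46.2% of the day 32 members and in 44.9% of the others.

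On 5 of the 7 shared days, the share of T-listed members that B of the same day listed lay within the range for members listed in T on other days. Of the members listed in T at day 119, 27.7% were listed in B at day 119, against 29.8 to 35.2% of those listed in T at each other day. At day 187 the same-day share was 52.3%, against 46.6 to 57.0%. Day 266 gave 33.5% (28.3 to 40.5% for the other T days) and day 365 gave 36.0% (21.8 to 38.0%). Day 393 gave 40.3% (34.7 to 46.8%), day 494 gave 8.86% (4.94 to 8.45%) and day 553 gave 25.7% (22.9 to 40.5%). The same-day value lay below all other T days at day 119 and above them at day 494, where 7 of 79 members were shared. In the myeloid-sharing set at day 494 the same-day share was 64.6%, against 31.4 to 50.9% for the other T days. At day 119 its same-day share, 54.6%, lay below the other T days (57.4 to 70.4%), and on the remaining shared days it lay within their range. In all, 1369 members (35.4%) were listed in T and B on the same day at least once and 242 (6.25%) on 2 or more days. For the myeloid-sharing set these were 65.1% and 32.2%.

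Members listed in T at day 119 were seen again in T at days 266 and 393 less than members in general. At day 266, 14.3% of them were listed in T, against 21.4% of all members, and at day 393 17.2% against 28.0%. In the myeloid-sharing set the same values were 35.5% and 35.6% at day 266, and 42.5% and 45.7% at day 393. A barcode needs 1 T listing to be a member, so those met at day 119 needed no later one, in both sets. Members listed in B at day 119 were listed in B at day 266 in 28.0% of cases, against 28.1% of all members, and at day 393 in 36.5% against 35.6%.

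Where T and B of a day both listed a member, the ratio of their shares differed between days. The median log2 ratio of T over B was −0.81 on day 119, with T higher in 73 of 510 members, and −0.20 on day 266 (107 of 278). Days 365, 393 and 553 gave 0.17, −0.13 and 0.21, with T higher in 106 of 179, 174 of 436 and 89 of 138. Day 187 gave 1.82, with T higher in 175 of 185. The T library of that day is the one that listed few barcodes at high shares. At day 494 it was −0.73 over 7 members. These members had to pass 100 reads in both libraries, and the depth of the libraries enters each ratio.

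4 members were listed in 13 T and B libraries. From day 119 on, bc857 held 0.0221, 0.0357, 0.0235, 0.0335, 0.0314, 0, 0.0189 and 0% of reads in the 8 T libraries. In B it held 0.0042% at day 32, then 0.0131, 0.0236, 0.0167, 0.0156, 0.00551, 0.0229 and 0.00419% in the 7 later libraries. It was listed in every B library, and the T and B values overlapped. bc2369 held 0.0218, 0.0173, 0.0110, 0.0135, 0.00681, 0, 0.00357 and 0.0058% in T from day 119 on, and 0.0209, 0.00919, 0.00646, 0.00401, 0.0129, 0.0128 and 0% in B from day 119 on. Its T and B values overlapped as well, and both were highest at day 119. bc1650 and bc921 were listed in all 8 T libraries, at 0.00756 to 0.0292% and 0.00464 to 0.0679%, and in B up to day 393, at up to 0.0140% and 0.0116%.

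6 further members were listed in 12 libraries. bc2067 was listed in 7 of 7 B libraries from day 119 at 0.0113 to 0.0243% and in 5 T libraries at up to 0.01%, and was at 0 in T at days 187, 494 and 553. bc900 was the reverse, with 8 of 8 T libraries at 0.00687 to 0.0478% and 4 B libraries at up to 0.0125%. bc3384 had 7 of 7 B libraries and was listed in B at days 119 and 187 before its first T listing at day 266. Of all members, 11 were listed in 8 of 8 T libraries, with 1 to 5 B libraries each, and 20 in 7 of 7 B libraries, with 1 to 6 T libraries each.

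T and B were compared with edgeR's quasi-likelihood test, with day as a block, over barcodes that reached 0.01% in at least 2 of the 14 libraries. Of 4940 barcodes tested, 878 were called at an adjusted p under 0.05, which is 17.8% (3.38% higher in T and 14.4% lower in T). 446 of the 3869 members passed the filter, and 23 of them (5.16%) were called, 12 higher and 11 lower in T. This split moved with the setting: it was 64 higher and 134 lower with DESeq2, 19 and 149 with no filter, 4 and 12 without the day block, and 8 and 1 without day 494. The other 3423 members did not reach 0.01% in 2 of these libraries. Among them were bc2374 and bc2554, whose high T values fell on days 536 and 553, and T of day 536 has no B library beside it. The conditions demand a listing in each lineage and cap T at 0.2%, and a member passes the filter through the lineage where it is high, so nothing is read from this share, and the calls of single members below are a description with no p-value. Serial days of 1 animal are not independent replicates, so the p-values measure only the spread between these libraries.

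The 12 members called higher in T were listed in T on 5 to 7 of the 7 shared days and in B on at most 3. bc386 was at 0 in T at day 119 and held 0.0177, 0.0334, 0.0512, 0.0456, 0.0896, 0.117 and 0.0503% in T at days 187, 266, 365, 393, 494, 536 and 553. In B it was listed at days 365 and 393, at 0.00523 and 0.00395%. At day 119 it was at 0 in both, and every later T value lay above every B value. T was at least 7.90-fold higher. Folds here set each 0 of the lower lineage to 100 reads and are over the 7 shared days. bc863 held 0.00505, 0.0526, 0.0496, 0.0562, 0.0286, 0.0196, 0.0435 and 0.00970% in T from day 119 on, and was listed in B at day 187 alone, at 0.00469%. Every T value lay above its B listing, but at days 119 and 553 T was below 0.0127%, the most that a 0 in B of day 494 allows. The T mean was at least 6.19-fold that of B. bc2134 was listed in all 8 T libraries, at 0.00967 to 0.0367%, and in B at day 365 alone, at 0.00464%. Its T mean was at least 3.71-fold that of B. For bc752 the T mean was at least 6.25-fold higher. bc386, bc863, bc2134 and bc752 were called again in 7 of 7 fits that left out 1 day, and bc2134 was not called without the day block. Those fits reuse the counts that chose the members, so repeated calls, here and below, are no separate support. bc3411, called higher in T, was called in 1 of those 7 and not without the day block.

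The 11 members called lower in T were listed in B on 5 to 7 of the 7 shared days and in T on at most 2. bc112 held the highest share of any member, 0.288% in B at day 393 and 0.277% in B at day 494. Its other B values were 0.00428% at day 32, 0 at day 119, then 0.0323, 0.0916 and 0.0213% up to day 365, and 0.02% at day 553. T listed it once, with 0.0677% at day 119. It thus appeared in B before T through day 32, and in T before B on the shared days. B was at least 7.48-fold higher. It was called in 7 of 7 fits that left out 1 day, and was not called without the day block. Without T of day 119 bc112 would not be a member. bc3230 was listed in 7 of 7 B libraries from day 119, at 0.00532 to 0.0206%, and in T at days 393 and 536, at 0.00852 and 0.00396%. B was at least 2.48-fold higher, and the call was lost without day 119, 266, 365 or 494 and without the day block. bc3990 was listed in 6 B libraries, at 0.00473 to 0.0263%, and in T at day 266 alone, at 0.00481% (at least 2.39-fold higher in B), and was called in 1 of 7 fits that left out 1 day and not without the day block.

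Slopes over time were called for few barcodes, members or not. Slopes per 100 days were fitted by edgeR over the 8 T and 7 B libraries from day 119, with 4994 barcodes tested, 462 members among them. In T 0.901% of all barcodes and 2 members (0.433%) were called. In B it was 0.28% of all barcodes and 0 members. An unadjusted p under 0.05 was found in B for 58 of the 462 members and 245 of all 4994. In T these numbers were 122 and 792, and for the difference of the slopes 97 and 587. The difference of the slopes was called for 0.16% of barcodes and 1 member (0.216%). Members passed the filter through T and B counts that the conditions used. Nothing is read from these shares, and the single calls are a description with no p-value. bc2374 was listed in T at days 536 and 553 alone, at 0.0428 and 0.0868%, and in B at days 365, 393 and 553, at 0.00656, 0.0044 and 0.00523%. Its T slope was 4.25 ± 0.93 log2 per 100 days, where ± is the slope divided by the square root of edgeR's F statistic. B had thus listed it before T. The call was lost without day 119, 187, 266 or 393, and without day 536 or 553 it did not pass the filter. bc112 had a T slope of −4.44 ± 0.66 and a difference of T minus B of −5.47 ± 0.96 (± as for bc2374). Both rest on its 1 T listing at day 119, which also made it a member, and neither was called without that day. The difference was also not called without day 187, 266 or 494. The slope fits took each listed 0 as 0 reads, though it may stand for up to 100. The sizes of the slopes of bc112 and bc2374 are thus not measured rates of change.

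5 members had the highest shares in T, bc386, bc2374, bc626, bc752 and bc2554, at 0.0820 to 0.117%. bc2554 held 0.00706, 0.00625, 0.0277 and 0.0820% in T of days 119, 266, 536 and 553. B listed it on days 266 and 365, with 0.00543 and 0.0081%. bc626 was at 0 in T at day 119 and held 0.0176 to 0.0861% in T afterwards, and was in B at days 187 and 553. After bc112 the highest B shares were those of bc3563, bc3222, bc4404 and bc3173, at 0.0528 to 0.0707%, all in the shallow B library of day 494. The 0.2% condition excluded 4 barcodes. Just inside it lay bc386 with a highest T share of 0.117%, bc2374 with 0.0868% and bc626 with 0.0861%. Just outside lay bc146 with 0.254%, bc96 with 0.314% and bc128 with 0.322%, and the last excluded was bc176 with 0.328%. Among barcodes that met the other conditions, none lay between 0.117 and 0.254%.

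Members seldom shared a time course. Among the 479 members listed in at least 6 of the 15 libraries, Pearson's r of log2(percent + 0.01) over those libraries had a median of 0.0512 over 114481 pairs. 7 pairs reached 0.95, and none joined into a group larger than 2. The 15 libraries are shared by all pairs and most values lie near the limit of 100 reads, so r is a description. In the pair bc5096 and bc6611 both were listed in T at day 393 alone, at 0.00342 and 0.00339%, and in B at days 32, 119, 187, 365, 393 and 553. The day 32 library, which r did not use, held 0.00435% of each. bc4787 and bc6354 were likewise in T at day 393 alone and in B at days 32, 119, 365, 393, 494 and 553. bc4819 and bc5509 were in T at days 266 and 393 and in B at days 119, 187, 266, 393 and 553, while B of day 32 listed bc4819 at 0.0250% and bc5509 at 0. The sequences within these 3 pairs differed at 19 or 20 bases.

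Outside the 4 lineages of the conditions, few members were listed, in libraries that could have shown few. bc1 to bc6 held 93.2 to 99.9% of reads in the nRBC, EOS and CD34p libraries. Counted over the other reads, a 0 there meant at most 0.0414 to 5.01%, depending on the library. Most members did not reach such shares in T or B, so a 0 there does not show absence. The nRBC libraries of days 266, 309, 494 and 553, the EOS library and the CD34p library listed 0 members, where they listed 9 to 36 barcodes in all. The nRBC library of day 393 listed 201 barcodes, of which 4 were members (0.103% of all members) and 129 were of the myeloid-sharing set (1.71% of that set). The 4, named after their values were seen, were bc12194 with 368 reads, bc4615 with 156, bc7683 with 155 and bc17355 with 117. bc4615 was listed in B at day 393, at 0.0140%, and at 0 in T of that day. bc7683 was in T of day 393, at 0.00361%, and at 0 in B. bc12194 and bc17355 were at 0 in both.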

How the data were processed

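Barcodes were amplified from 200 ng of blood cell DNA by 28 PCR cycles, per the labels' protocols. The authors deposited 1 table of read counts per barcode and library, and of the counting program and its minimum the labels say nothing. Counts are PCR reads without molecular identifiers, and barcodes are not replicates, so shares of members are given without intervals. All 38 columns were matched to labels, and 0 were unused. Shares are percent of a library's reads. The members, lists and named barcodes were chosen with earlier results of these data known. Named barcodes were the members in the most libraries, the 5 highest in T and in B, the 5 in the most libraries among those in B of day 32, the 3 with the largest called change in each direction, the 3 leading co-varying groups and those beside the 0.2% limit.

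Counts were fitted with edgeR 4.0.16 in R 4.3.3 (quasi-likelihood test, Benjamini-Hochberg adjustment), with DESeq2 1.42.0 as an alternative. Tables were made with Python 3.11.15, pandas 2.3.3 and scipy 1.17.1. T and B of a day come from the same animal and day per the labels, so day was a block in the T against B fit. On simulated data with log2 changes of 3 in 200 barcodes, the T against B fit recovered 200 with 4 false calls among 4994. With simulated counts up to 100 set to 0, it recovered 10 among 4923. For slope differences of 1.5 per 100 days the slope fit recovered 196, and 89 with the limit. The median fitted difference of the rising barcodes was 1.53, and 2.43 with the limit. Alternatives were other share and T limits, library minimums, normalization, filters, no block and leaving out each day.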

Additional observations from a re-analysis of the deposited data

Results flagged for a closer look

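In 80 sets of libraries of 1 lineage, 23 had a library far from the others by Dixon's criterion. Chance gives about 1 in 20 for continuous values, which does not hold where a barcode has 1 listing among zeros, since its ratio is then fixed at its highest. In B, members listed at day 494 had a median of 0.0167%, far from the other days. That shallow library could list no member below 0.0127%, while the next highest B median was 0.00853% at day 119. With further listings in the lineage, B of day 494 stood apart for bc3222 (0.0638%) and bc3563 (0.0707%), T of day 553 for bc2554 (0.0820%) and B of day 32 for bc4819 (0.0250%). The same was found for bc626 in B of day 553 (0.00963%), bc3230 in T of day 393 (0.00852%) and bc4404 in T of day 119 (0.0140%). A 0 at day 494 allows up to 0.0131% in T and 0.0127% in B. bc626 and bc3230 lie below these limits and bc4404 only just above, so none of them is shown to stand apart.

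The others are the barcode's only listing in the lineage. 3 lie above those limits: bc112 in T of day 119 (0.0677%), and bc3173 (0.0528%) and bc4404 (0.0561%) in B of day 494. bc3173 and bc4404 were named for these same B shares. The rest lie below and are not shown to stand apart. In T these were bc4787 (0.00557%), bc5096 (0.00342%), bc6354 (0.00383%) and bc6611 (0.00339%) at day 393, bc3222 (0.00412%), bc3990 (0.00481%) and bc12194 (0.00522%) at day 266, and bc3563 (0.00386%) and bc17355 (0.00357%) at day 536. In B they were bc863 at day 187 (0.00469%), bc2134 at day 365 (0.00464%) and bc3411 at day 119 (0.00864%).

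The slope of bc112 differed between T and B by −5.47 log2 per 100 days in edgeR's interaction test, and the difference was −0.53 and not called without day 119. Its 1 T listing at day 119 made bc112 a member as well as this slope, so no p-value is given. In the nRBC library of day 393, a lineage outside the T, B, Gr and Mono conditions, 4 members had reads: bc12194 had 368, bc4615 had 156, bc7683 had 155 and bc17355 had 117.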

How the results depend on the processing

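The number of members was 3868 and 3873 with a T limit of 0.1% or none, 2777 on days that also have Gr and Mono, and 2598 to 3853 when 1 day was left out. It was 765 with at least 2 T and 2 B libraries, and 703 with a common limit of 0.0132%, of which 126 were among the 3869. B came first in 33.5% of members, in 45.3% under the common limit, in 35.7% with at least 2 T and 2 B libraries, and in 28.1 to 59.4% when 1 day was left out, the highest being without day 119. Under the common limit B of day 32 listed 12 of the 703 barcodes, where it had listed 1119 of the 3869 members. Outside the 4 lineages 1 of the 703 was found, against 4 of the members. Most of the 703 were not members under the main conditions, so these values describe mainly other barcodes. Co-varying groups numbered 31 at r of at least 0.90 and 21 with a pseudocount of 0.001, in place of 7. Members called between T and B numbered 23, and 25 with TMM factors, 198 with DESeq2, 168 with no filter and 5 with a filter at 0.05%. They numbered 63 with each 0 set to 100 reads, an alternative chosen after seeing the data, and 7 to 20 when 1 day was left out, with 7 without day 365. Without the replicate block, that is without pairing T and B by day, 16 were called. For the difference of slopes 1 member was called, and 0 to 2 when 1 day was left out. T came first more than B in the whole set (45.3% against 33.5%), but less than B without day 119 (19.7% against 59.4%), under the common limit and with at least 2 T and 2 B libraries. For the named barcodes called in the main fits, no fitted change turned its sign under the alternatives run. The other named barcodes were not followed under them. The causes were not tested. The limit of 100 reads bounds every absence: most members lie near it, so orders, lists of days and calls depend on how many barcodes each library lists. The days come from 1 animal.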
